A study of Homo sapiens with 9 samples.

Results

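RXRA, the retinoid X receptor alpha, and 8 other nuclear receptor genes with known roles in lymphoid cells are described here in ALL-SIL, an established line of human T-cell acute lymphoblastic leukaemia. The 9 genes were chosen by name (RXRA, RXRB, RARA, RARG, VDR, RORA, NR3C1, THRA and NR1H2), out of 58096 genes in the deposited count tables. RXRA entered the choice because its counts were higher under the siRNA1 label, so its values in the comparisons with that label are a description with no test. A small interfering RNA (siRNA, a duplex that guides the cutting of mRNAs it matches) was electroporated into the cells, and polyA+ RNA was sequenced. The labels name 3 groups of 3 libraries: TLX1 siRNA1, TLX1 siRNA2 and NTC siRNA, each with replicates 1 to 3. All libraries come from the same cell line and all cells were electroporated. The sources used here give no siRNA sequence, dose or time of harvest.

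Nuclear receptors are transcription factors that bind DNA and change the transcription of nearby genes, many of them when a small lipid-soluble ligand enters their ligand pocket. Retinoid X receptors (RXRs) are shared partners: they pair with the retinoic acid receptors (RARs), the vitamin D receptor, thyroid hormone receptors and liver X receptors (LXRs). The glucocorticoid receptor acts largely without RXR, and glucocorticoids, which kill many lymphoblasts through it, are a mainstay of treatment of this leukaemia. RORA belongs to a family of receptors that can bind DNA as single molecules and that act in lymphocyte development and in the circadian clock.

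The labels were first checked against TLX1, the homeobox oncogene that the siRNAs name. In CPM (gene counts scaled to a common library total), TLX1 read 184, 167 and 183 in replicates 1, 2 and 3 under the NTC label, 406, 457 and 387 under the siRNA1 label, and 198, 231 and 179 under the siRNA2 label. It was therefore higher under the siRNA1 label than under NTC (log2 fold change 1.22 with SE 0.08, edgeR adjusted p = 2.05e-10) and did not pass the test for siRNA2 against NTC (0.18, SE 0.08, edgeR adjusted p = 0.495). That goes against what a TLX1 siRNA is meant to do, so all directions below are given by label. Of 16 T lineage markers, 15 had a mean of at least 1 CPM and PTCRA did not. Their summed level ranged from 3929 to 3943 CPM under NTC, 3673 to 3893 under siRNA1 and 3483 to 4202 under siRNA2. No myeloid, NK, erythroid or epithelial and fibroblast marker reached 1 CPM, and 3 of 6 B cell markers did not (MS4A1, PAX5 and EBF1). The summed B cell markers ranged from 19.9 to 32.6 CPM over the 9 libraries. Libraries held 58305492 to 99524663 gene counts.

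Windows before annotated starts of RXRA and RORA are shown because these receptors had the widest gaps between labels, in opposite directions. Each is the 250 bases before an annotated start (RefSeq, GRCh38.p14), printed 5′ to 3′ on the gene's strand. Capitals mark 3 words on either strand: AGGTCA, the core word bound by many receptors of this family (TGACCT on the other strand), GGGCGG, the GC box core (CCGCCC), and TAAT, the core word of homeodomain proteins (ATTA). The RXRA window, chr9:134326205-134326454 on the plus strand, lies before a start inside the annotated gene and holds 6 GGGCGG and no AGGTCA or TAAT. A second RXRA window further inside the gene, chr9:134379045-134379294, holds 1 GGGCGG and 1 TAAT and is not printed.
RXRA: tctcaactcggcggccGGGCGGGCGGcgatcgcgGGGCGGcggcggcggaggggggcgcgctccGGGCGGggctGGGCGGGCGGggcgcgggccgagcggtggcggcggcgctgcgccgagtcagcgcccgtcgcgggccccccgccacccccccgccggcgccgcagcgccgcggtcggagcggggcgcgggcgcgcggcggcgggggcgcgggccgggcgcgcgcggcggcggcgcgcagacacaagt
The RORA window, chr15:60627531-60627780 on the minus strand, the only RORA window in the table, also lies before a start inside the gene and holds 4 TAAT and none of the other words.
RORA: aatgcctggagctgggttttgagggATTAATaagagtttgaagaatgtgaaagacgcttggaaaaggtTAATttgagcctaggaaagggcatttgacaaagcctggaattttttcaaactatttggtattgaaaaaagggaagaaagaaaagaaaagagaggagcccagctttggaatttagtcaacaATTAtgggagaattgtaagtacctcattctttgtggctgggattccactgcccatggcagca
The table held 18 such windows for 8 of the 9 genes (not VDR), 7 of them for NR3C1. Of the 18, 1 held AGGTCA (RARA, chr17:40308930-40309179), 14 held GGGCGG and 8 held TAAT. Among all 35116 windows of this length in the table, 12.1% held AGGTCA, 42.6% held GGGCGG and 47.4% held TAAT. A match describes the letters of the window and shows no binding.

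A 7-base word, GCAGTAC, had been found in an earlier search of the same libraries among the 3′ UTRs of genes that were lower under the siRNA1 label, so its presence is not independent of these data. It occurs in the 3′ UTR of 867 of 19380 genes searched (4.47%) and of 2 of the 9 receptors, RARA and RORA, which moved in opposite directions under that label. The 3′ UTR searched was 1417 bases long for RARA and 9171 for RORA. These shares do not account for length, so nothing is read from them. The sites are shown with 10 bases on either side and the word in capitals, at chr17:40356334-40356340 on the plus strand for RARA and chr15:60491386-60491392 on the minus strand for RORA (GRCh38, GENCODE 29).
RARA: gccctcccggGCAGTACtggggacctt
RORA: tgccacattaGCAGTACcacacttctt

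All receptors but VDR were present well above the detection limit. Their levels were compared as TPM, per merged length of all annotated exons of a gene. The order depends on that length: in mean CPM, NR3C1 (88) lay above RXRB (79.4) and NR1H2 (39.3). RXRB was highest at 73.2 ± 6.69 TPM (SD over all 9 libraries), followed by NR1H2 at 37.9 ± 2.59, NR3C1 at 34.8 ± 4.3, THRA at 21.1 ± 2.26 and RARA at 20.8 ± 3.79 TPM. RARG stood at 10.7 ± 2.38, RXRA at 6.44 ± 3.72 and RORA at 5.4 ± 1.88 TPM. VDR was last at 0.0706 ± 0.0322 TPM. In the TPM order THRA lay above RARA in 4 of 9 libraries, so that pair kept no fixed order. NR1H2 lay above NR3C1 in 8 of 9, a difference that was not tested. The order of RXRA and RORA turned by label: RXRA lay above RORA in 3 of 3 libraries labelled siRNA1, and RORA above RXRA in 3 of 3 labelled NTC and 3 of 3 labelled siRNA2. RXRA was chosen on its siRNA1 values, so this turn is a description only. Every other neighbour in the order kept its place in all 9 libraries.

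**Figure D1:**
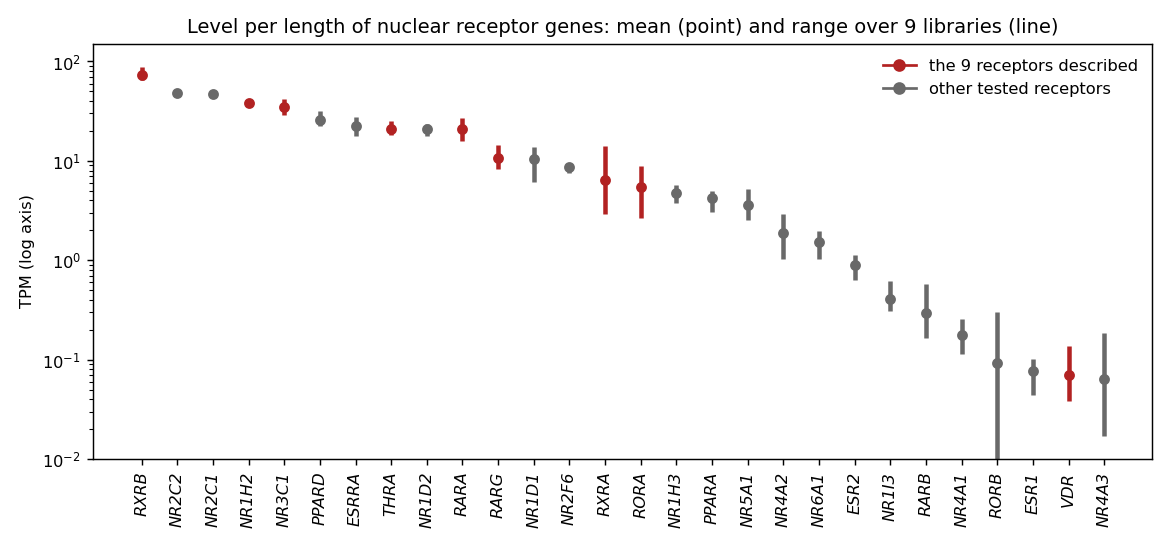
Level of nuclear receptor genes per merged length of annotated exons (TPM, log axis), for the 27 genes tested and VDR. Points show the mean and lines the range over 9 libraries. The line of RORB starts at 0 and is drawn from the lower edge. RXRB leads at 73.2 TPM, RXRA and RORA have wide ranges, and VDR lies near the bottom.

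The RXR pair was uneven, with RXRB making up most of it. RXRA (ENSG00000186350.9, chromosome 9 from 134317098 to 134440585, plus strand) stood at 9.5, 10.1 and 16.2 CPM in replicates 1, 2 and 3 labelled NTC. The siRNA1 libraries gave 23.8, 34.1 and 41.1 CPM and the siRNA2 libraries 12.4, 14.2 and 15.9 CPM, in the same order. The siRNA1 libraries lay above all 6 others, and the siRNA2 and NTC libraries overlapped. As a description, RXRA was 2.77-fold higher under siRNA1 than under NTC (log2 fold change 1.47, SE 0.09) and 2.29-fold higher than under siRNA2 (1.19, SE 0.09). The log2 ratios to NTC within replicates 1, 2 and 3 were 1.32, 1.75 and 1.34. The comparison of siRNA2 with NTC gave a log2 fold change of 0.28 (SE 0.10) that did not pass (edgeR adjusted p = 0.346), with 2 of 3 pairs higher. It shares its libraries and fit with the comparisons with siRNA1, so it is not independent of the choice. TLX1 itself was 2.33-fold higher under siRNA1 than under NTC, and its part in the RXRA values was not tested. In bulk RNA, a change in the number of cells of a kind and a change in RNA per cell cannot be told apart.

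RXRB (ENSG00000204231.10, chromosome 6 from 33193588 to 33200688, minus strand), the second RXR, stood at 74.2, 81.4 and 81.2 CPM under NTC, 82.3, 78.8 and 90.9 CPM under siRNA1, and 76.2, 75.9 and 73.4 CPM under siRNA2. The siRNA1 and NTC groups overlapped, and the difference did not pass (log2 fold change 0.09 with SE 0.07, edgeR adjusted p = 0.468). All siRNA1 libraries lay above all siRNA2 libraries, but that difference did not pass either (0.16, SE 0.07, edgeR adjusted p = 0.151). RXRA made up 5.04 ± 1.34% of the summed RXRA and RXRB TPM under NTC, 12.1 ± 2.47% under siRNA1 and 6.25 ± 0.848% under siRNA2 (SD, n = 3 each). These shares depend on the exon lengths used, 11083 bases for RXRA and 3920 for RXRB. In mean CPM under NTC, RXRA stood at 11.9 and RXRB at 78.9. RXRG, the remaining RXR gene, had 0 counts in every library. RXRB shares 6.2% of its exon bases with SLC39A7 on the opposite strand, and these counts do not use strand. The part of this overlap was not tested.

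**Figure D2:**
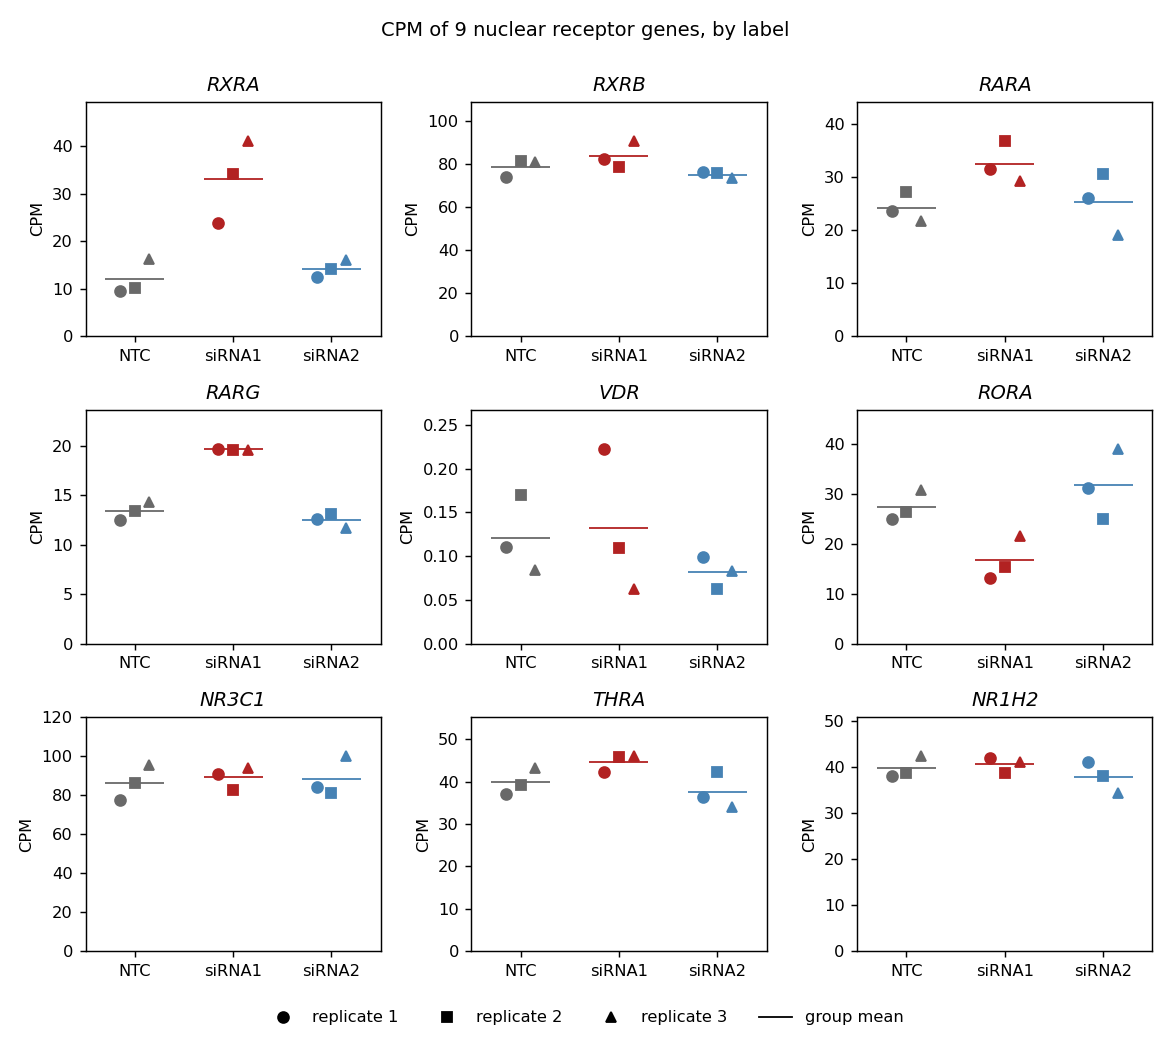
Level (CPM) of the 9 receptor genes in each library, by label, with replicate numbers as symbols and group means as lines; each panel has its own axis from 0. RXRA and RARG lie higher and RORA lower in all 3 siRNA1 libraries than in the 6 others, while the 3 groups overlap for NR3C1 and NR1H2.

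RARA and RARG rose under the siRNA1 label. RARB, the remaining retinoic acid receptor gene, had 12 to 35 counts per library and did not pass (siRNA1 against NTC 0.07, SE 0.30, edgeR adjusted p = 0.929). Of the 7 tested receptors other than RXRA, 3 passed for siRNA1 against NTC, 2 higher (RARA and RARG) and 1 lower (RORA). Over all 18554 genes tested, 11.4% passed, 5.48% higher and 5.93% lower. Without the replicate number as a block in the fit, 1 of the 7 passed (RARG), against 1.28% of all genes. For siRNA1 against siRNA2, 4 of 7 passed (RARA, RARG and THRA higher, RORA lower), against 10.6% of all genes, 5.29% higher and 5.27% lower. Without the block 2 of them passed (RARG and RORA), against 1.08% of all genes. For siRNA2 against NTC, 0 of the 8 tested receptors passed and 0.151% of all genes did. There edgeR called 28 genes, with 1553 at an unadjusted p under 0.05, while DESeq2 called 105 and limma-voom 29. These comparisons share libraries, so their counts are not separate evidence.

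RARG (ENSG00000172819.16, chromosome 12 from 53210567 to 53232980, minus strand), the retinoic acid receptor gamma, stood at 12.5, 13.4 and 14.3 CPM in replicates 1, 2 and 3 labelled NTC. It stood at 19.7, 19.6 and 19.6 CPM under siRNA1 and at 12.6, 13.1 and 11.7 CPM under siRNA2. The siRNA1 libraries were nearly equal and lay above the other 6. RARG was 1.47-fold higher under siRNA1 than under NTC (log2 fold change 0.55 with SE 0.08, edgeR adjusted p = 2.8e-05; 0.0163 without the block) and 1.58-fold higher than under siRNA2 (0.66, SE 0.08, edgeR adjusted p = 3.81e-06; 0.00831 without the block). Against NTC, siRNA2 gave −0.11 (SE 0.08, edgeR adjusted p = 0.77). Its calls held whichever of the 9 libraries was left out.

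RARA (ENSG00000131759.17, chromosome 17 from 40309192 to 40357643, plus strand), the retinoic acid receptor alpha, varied more between replicate numbers. It stood at 23.6, 27.3 and 21.7 CPM in replicates 1, 2 and 3 labelled NTC, 31.5, 36.9 and 29.3 CPM under siRNA1, and 26.1, 30.6 and 19.1 CPM under siRNA2. In each group replicate 2 was highest and replicate 3 lowest. The siRNA1 and NTC groups did not overlap, while those of siRNA1 and siRNA2 did. The log2 ratios of siRNA1 to NTC were 0.42, 0.44 and 0.43 within replicates 1, 2 and 3. RARA rose by 1.35-fold against NTC (log2 fold change 0.43 with SE 0.08, edgeR adjusted p = 0.000429), but the call was lost without the block (adjusted p = 0.33). Against siRNA2 it was 1.3-fold higher (0.38, SE 0.08, edgeR adjusted p = 0.00169; 0.458 without the block). With the block, both calls held whichever library was left out. RARA shares 17.9% of its exon bases with RARA-AS1 and AC080112.3 on the opposite strand. Reads ambiguous between genes (6.68% to 7.25% per library) were left out of all gene counts, and the part of this overlap was not tested. As a share of the summed RARA and RARG TPM, RARG made up 33.9 ± 3.45% under NTC, 35.9 ± 2.74% under siRNA1 and 31.7 ± 3.92% under siRNA2 (SD, n = 3 each), ranges that overlapped.

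RORA fell under the siRNA1 label. RORA (ENSG00000069667.15, chromosome 15 from 60488284 to 61229319, minus strand) encodes the RAR-related orphan receptor alpha, an activator of clock genes that also acts in innate lymphoid and helper T cells. It stood at 25.0, 26.3 and 30.8 CPM in replicates 1, 2 and 3 labelled NTC, 13.2, 15.3 and 21.6 CPM under siRNA1, and 31.1, 24.9 and 39.1 CPM under siRNA2. All siRNA1 libraries lay below the other 6. RORA was 1.66-fold lower under siRNA1 than under NTC (log2 fold change −0.73 with SE 0.09, edgeR adjusted p = 4.39e-06), a call lost without the block (−0.71, SE 0.19, adjusted p = 0.121). It was 1.91-fold lower than under siRNA2 (−0.93, SE 0.09, edgeR adjusted p = 1.9e-07; 0.0427 without the block). Against NTC, siRNA2 gave 0.20 (SE 0.09, edgeR adjusted p = 0.545). With the block, both calls of RORA held whichever library was left out. The word printed for its 3′ UTR was found on these same libraries and adds nothing to this comparison. Other genes overlap 5.3% of RORA's exon bases.

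**Figure D3:**
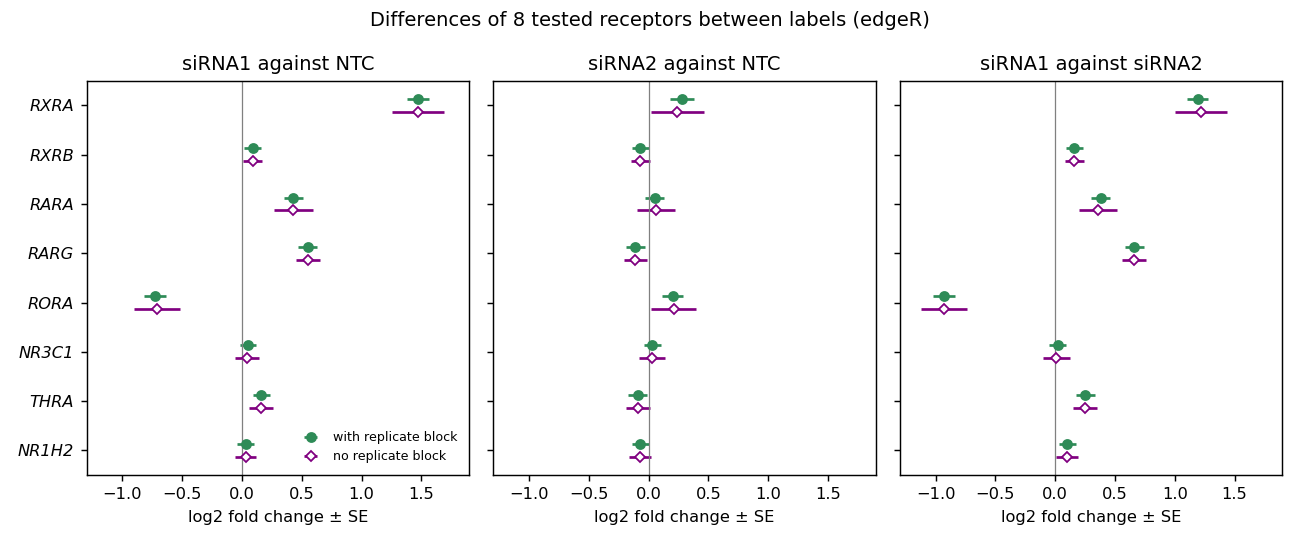
Log2 fold change with its SE for the 8 tested receptors in each comparison, with the replicate block (filled circles) and without it (open diamonds). RXRA lies at 1.47 and RORA at −0.73 for siRNA1 against NTC, the middle panel stays near 0, and SEs without the block are wider.

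The glucocorticoid receptor and the LXR beta gene did not pass in any comparison. NR3C1 (ENSG00000113580.14, chromosome 5 from 143277931 to 143435512, minus strand), the glucocorticoid receptor, stood at 77.5, 86.3 and 95.7 CPM under NTC, 90.9, 82.9 and 93.9 CPM under siRNA1, and 84.1, 81.1 and 100 CPM under siRNA2. The 3 groups overlapped, and the log2 fold changes were 0.05 (SE 0.07, edgeR adjusted p = 0.742) for siRNA1 and 0.03 (SE 0.07, edgeR adjusted p = 0.945) for siRNA2 against NTC. NR1H2 (ENSG00000131408.13, chromosome 19 from 50329653 to 50382982, plus strand), the oxysterol receptor LXR beta, stood at 37.9, 38.7 and 42.3 CPM under NTC, 41.9, 38.7 and 41.1 CPM under siRNA1, and 41.0, 38.0 and 34.3 CPM under siRNA2. Its groups overlapped too (siRNA1 against NTC 0.03, SE 0.07, edgeR adjusted p = 0.843).

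THRA (ENSG00000126351.12, chromosome 17 from 40058290 to 40093867, plus strand), the thyroid hormone receptor alpha, stood at 37.2, 39.2 and 43.2 CPM under NTC, 42.2, 45.7 and 46.0 CPM under siRNA1, and 36.4, 42.2 and 34.0 CPM under siRNA2. The groups overlapped, although each siRNA1 library exceeded the NTC and siRNA2 libraries of its own number. THRA passed for siRNA1 against siRNA2 (log2 fold change 0.25 with SE 0.08, edgeR adjusted p = 0.0346; 0.385 without the block) and not against NTC (0.16, SE 0.07, edgeR adjusted p = 0.182). Leaving out 1 library at a time, the first call held in 4 fits of 9. It was lost without siRNA1 replicate 1 (0.146), 2 (0.062) or 3 (0.157), and without siRNA2 replicate 1 (0.0561), where the numbers are edgeR adjusted p. Without siRNA2 replicate 3 the log2 fold change dropped to 0.14 (edgeR adjusted p = 0.173), and the comparison with NTC then passed (0.16, edgeR adjusted p = 0.0423). NR1D1, on the opposite strand, covers 3.8% of THRA's exon bases and was lower in the same comparison (log2 fold change −0.40 with SE 0.11, edgeR adjusted p = 0.0194; 0.644 without the block); the part of the overlap was not tested.

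VDR (ENSG00000111424.10, chromosome 12 from 47841537 to 47943048, minus strand), the vitamin D receptor, had 7, 17 and 7 counts in replicates 1, 2 and 3 labelled NTC, 21, 10 and 6 under siRNA1, and 7, 5 and 5 under siRNA2. These are 0.0627 to 0.223 CPM. The groups overlapped, and the gene was left out of the test by the filter on low counts.

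The replicate number itself separated some of these receptors, as it did many of all genes tested. It passed for RXRA (edgeR F test of the replicate coefficients, adjusted p = 5.88e-05), RARA (0.000512), RORA (0.000391) and NR3C1 (0.0264), against 35.8% of all genes tested. Mean RXRA was 15.2, 19.5 and 24.4 CPM over the 3 libraries numbered 1, 2 and 3, mean RARA 27.1, 31.6 and 23.4 CPM, mean RORA 23.1, 22.2 and 30.5 CPM and mean NR3C1 84.2, 83.4 and 96.5 CPM. RXRB (0.632), RARG (0.874), THRA (0.305) and NR1H2 (0.742) did not pass. The labels do not state what a replicate number stands for.

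Seen within the whole family, the 9 receptors include the highest by TPM but not all of the leading genes. Of 47 human nuclear receptor genes examined, 27 were tested, 20 had a mean of at least 1 TPM, and 8 had 0 counts in every library. Outside the 9, orphan and fatty acid receptors had the highest levels: NR2C2 at 48.3 ± 2.56, NR2C1 at 47.1 ± 3.01 and PPARD at 25.6 ± 2.8 TPM (SD over 9 libraries). Their log2 fold changes for siRNA1 against NTC were 0.01 (SE 0.06), 0.01 (SE 0.06) and 0.19 (SE 0.07), and none passed (edgeR adjusted p = 0.968, 0.97 and 0.111). PPARD passed at 0.18 (edgeR adjusted p = 0.0231) without siRNA2 replicate 3. Of the 26 tested besides RXRA, 4 were higher and 3 lower for siRNA1 against NTC, beside 5.48% and 5.93% of all genes, and their median log2 fold change was 0.07 (0.00 over all genes). For siRNA1 against siRNA2, 3 were higher and 3 lower, beside 5.29% and 5.27% of all genes, with a median of 0.02 (0.01 over all genes), and for siRNA2 against NTC 0 passed.

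NR5A1, steroidogenic factor 1, was the only one of the other receptors described whose call held whichever library was left out. It fell from 4.06 ± 0.714 CPM under NTC to 2.75 ± 0.292 under siRNA1 (log2 fold change −0.57 with SE 0.13, edgeR adjusted p = 0.00379; 0.198 without the block; SD, n = 3 each). NR5A1 stood at −0.32 (SE 0.13) for siRNA2 against NTC, which did not pass (edgeR adjusted p = 0.468). Nor did siRNA1 against siRNA2 pass for this gene (−0.25, SE 0.13, edgeR adjusted p = 0.25). The clock repressor NR1D1 fell against NTC (−0.43, edgeR adjusted p = 0.0104), and the call was lost without NTC replicate 1 (0.0521) or siRNA1 replicate 1, where the log2 fold change was −0.26 (0.193). Against siRNA2 NR1D1 gave −0.40, lost without siRNA1 replicate 1 (−0.23) or siRNA2 replicates 1 (−0.29) or 2 (−0.39). PPARA, the fatty acid receptor alpha, was higher (0.31, edgeR adjusted p = 0.0111), a call lost without replicate 2 of NTC (0.0832) or of siRNA1 (0.145). For PPARA the siRNA2 libraries gave a value against NTC that did not pass (0.30, SE 0.08, edgeR adjusted p = 0.162), and siRNA1 against siRNA2 gave 0.01 (SE 0.08). The immediate-early receptor NR4A2 was higher (0.51, edgeR adjusted p = 0.0154) and lost without NTC replicates 1 or 3 or any siRNA1 replicate (highest adjusted p = 0.112). NR4A2 also stood at 0.59 (SE 0.14) for siRNA2 against NTC, which did not pass (edgeR adjusted p = 0.0871), and at −0.08 (SE 0.13) for siRNA1 against siRNA2. NR4A3 held 2 to 23 counts per library and was lower for siRNA1 against siRNA2 (−1.71, edgeR adjusted p = 0.0231), a call lost without any siRNA1 replicate or siRNA2 replicates 1 or 3 (highest adjusted p = 0.23). None of these calls held without the block.

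Receptors act through coactivators and corepressors that they recruit. In this and the following lists, counts stand beside 5.48% of all genes higher and 5.93% lower for siRNA1 against NTC. Of 20 tested coactivators, 2 rose and 2 fell (median log2 fold change −0.03), and of 16 corepressors 0 passed (median −0.01; lowest −0.15, highest 0.49). PPARGC1B, a coactivator of receptors in energy metabolism, fell from 29.2 ± 2.75 to 23.3 ± 2.88 CPM (−0.33, SE 0.07, edgeR adjusted p = 0.00178). KAT2B, a histone acetyltransferase (0.27, edgeR adjusted p = 0.00794), and NCOA4 (0.26, edgeR adjusted p = 0.0216) rose, and the arginine methyltransferase PRMT1 fell (−0.22, edgeR adjusted p = 0.036). The KAT2B call was lost without NTC replicate 3 or siRNA1 replicates 1 or 2, that of NCOA4 without NTC replicates 2 (0.16) or 3 or siRNA1 replicates 1 or 2, and that of PRMT1 without NTC replicates 1 or 3 (−0.15) or any siRNA1 replicate, the numbers being log2 fold changes. No coactivator passed without the block.

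Of 13 tested retinoid metabolism and transport genes, 1 rose, 3 fell and 9 did not pass for siRNA1 against NTC (all genes: 5.48% higher, 5.93% lower). Their median was −0.16, against 0.00 over all genes. RDH10, the retinol dehydrogenase that starts retinoic acid synthesis, fell from 116 ± 26.1 CPM under NTC to 69.7 ± 17.3 under siRNA1 (−0.74, SE 0.07, edgeR adjusted p = 8.72e-08; 0.118 without the block; SD, n = 3 each). It was lower in 3 of 3 pairs, and the groups did not overlap. FABP5, a fatty acid binding protein that also carries retinoic acid, fell by 0.39 on the log2 scale (edgeR adjusted p = 0.000769; 0.177 without the block). STRA6, a membrane receptor for retinol uptake, fell by 0.32 (edgeR adjusted p = 0.00473), a call lost without siRNA1 replicates 1 (0.08) or 2 (0.0602). RETSAT, retinol saturase, rose by 0.21 (edgeR adjusted p = 0.0484) and lost its call when any library but siRNA2 replicate 3 was left out. None of the 4 passed without the block.

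Genes known to respond to retinoic acid moved both ways. Of 13 tested, 4 rose, 3 fell (CD38, ITGA4 and STRA6, the last of which stands in both retinoid lists) and 6 did not pass for siRNA1 against NTC (median 0.07; all genes 5.48% higher, 5.93% lower), and 0 passed for siRNA2 against NTC. ITGB7, the integrin beta chain of gut-homing lymphocytes, rose from 2.34 ± 0.199 to 4.54 ± 0.903 CPM (0.94, SE 0.12, edgeR adjusted p = 9.8e-06; 0.0211 without the block; SD, n = 3 each). HIC1, a transcriptional repressor, rose from 7.37 ± 0.89 to 12.3 ± 2.41 CPM (0.72, SE 0.11, edgeR adjusted p = 8.19e-05; 0.153 without the block). The gut-homing chemokine receptor CCR9 was higher (0.40, edgeR adjusted p = 0.00852), a call lost without replicates 1 or 3 of NTC or of siRNA1 (highest adjusted p = 0.0817). CD38, an ectoenzyme that retinoic acid induces in myeloid cells, fell (−0.53, SE 0.06, edgeR adjusted p = 4.45e-06; 0.681 without the block), in 3 of 3 pairs though the groups overlapped. ITGB7 was the member of this list that passed without the block.

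Glucocorticoid-responsive genes also moved both ways, while NR3C1 itself did not pass. Of 21 tested, 3 rose, 4 fell and 14 did not pass for siRNA1 against NTC, beside 5.48% higher and 5.93% lower of all genes, with a median of 0.02. TSC22D3, the glucocorticoid-induced leucine zipper, rose from 0.482 ± 0.241 to 1.3 ± 0.659 CPM (1.40, SE 0.20, edgeR adjusted p = 3.26e-05; 0.156 without the block; SD, n = 3 each). DDIT4, an inhibitor of mTOR signalling, was 1.69-fold higher (0.75, SE 0.13, edgeR adjusted p = 0.000232; 0.421 without the block), and ANXA1, annexin A1, 1.44-fold higher (0.53, SE 0.12, edgeR adjusted p = 0.00363; 0.444 without the block). IL7R, the interleukin-7 receptor alpha chain, was 2.52-fold lower (−1.33, SE 0.10, edgeR adjusted p = 7.02e-09; 0.00134 without the block). DDIT4 also stood at 0.51 (SE 0.13, edgeR adjusted p = 0.12) for siRNA2 against NTC, and did not pass for siRNA1 against siRNA2 (0.24, edgeR adjusted p = 0.248). TSC22D3, ANXA1 and IL7R did pass for siRNA1 against siRNA2 (edgeR adjusted p = 5.46e-05, 0.019 and 4.26e-08). FKBP5, a standard glucocorticoid target, did not pass for siRNA1 against NTC (0.08, SE 0.06, edgeR adjusted p = 0.456).

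Of 13 chaperones and cochaperones of the glucocorticoid receptor, 3 fell and 10 did not pass for siRNA1 against NTC (median −0.12), where 5.93% of all genes fell. FKBP4, the immunophilin of the receptor complex, fell from 99.9 ± 10.8 to 73.9 ± 8.07 CPM (−0.44, SE 0.06, edgeR adjusted p = 4.34e-05; 0.113 without the block; SD, n = 3 each). HSP90AA1 fell by 0.26 (edgeR adjusted p = 0.00756), a call lost without NTC replicate 1 (0.0894) or siRNA1 replicate 3 (0.0801). DNAJB1 fell by 0.21 (edgeR adjusted p = 0.0288), a call lost without NTC replicates 1 or 3 or any siRNA1 replicate (highest adjusted p = 0.196). None of the 3 passed without the block.

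**Figure D4:**
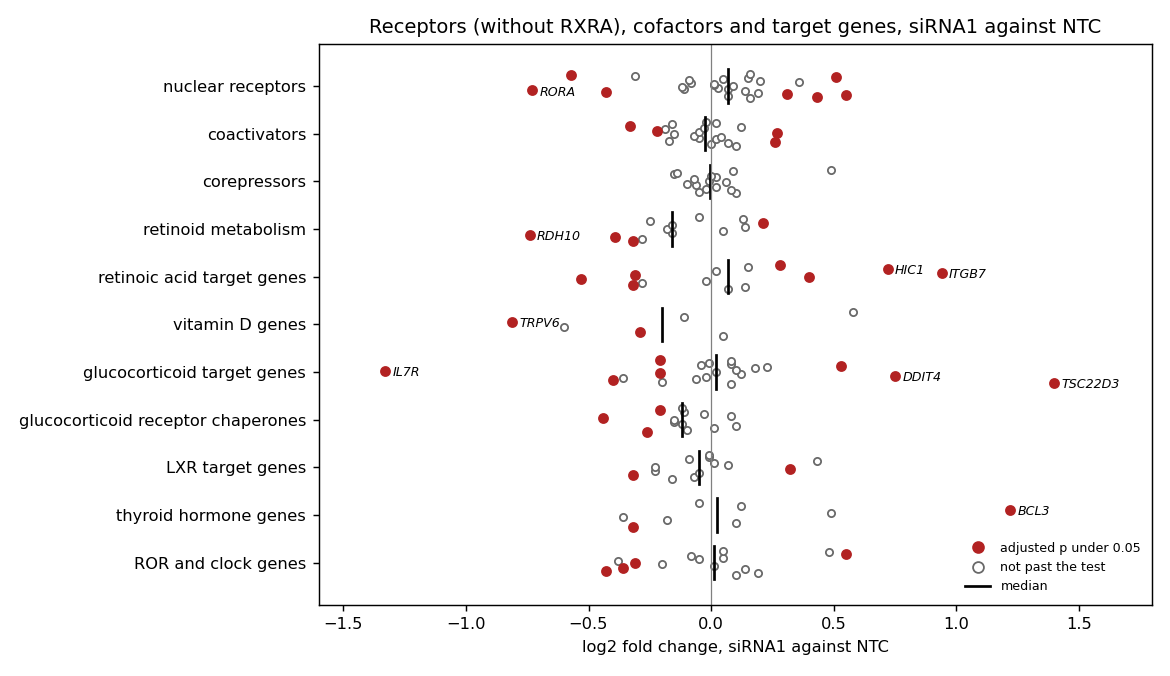
Log2 fold change for siRNA1 against NTC of each tested gene in the receptor list (without RXRA) and the lists of cofactors, metabolism and target genes, with filled points for an edgeR adjusted p under 0.05 and bars for list medians. Medians lie between −0.20 and 0.07, while single genes such as TSC22D3 (1.40) and IL7R (−1.33) lie far out.

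The remaining lists belong to RORA, VDR, NR1H2 and THRA. Of 15 tested ROR and clock genes, 1 rose and 3 fell for siRNA1 against NTC (median 0.01), where 5.48% of all genes rose and 5.93% fell. CRY1, a clock repressor, fell from 64.6 ± 1.82 to 50.2 ± 1.86 CPM (−0.36, SE 0.06, edgeR adjusted p = 0.000436; 0.0467 without the block; SD, n = 3 each). BHLHE40, another clock repressor, rose (0.55, SE 0.09, edgeR adjusted p = 0.000272; 0.168 without the block). BHLHE40 also stood at 0.26 (SE 0.09, edgeR adjusted p = 0.377) for siRNA2 against NTC, and at 0.29 (edgeR adjusted p = 0.0507) for siRNA1 against siRNA2. PER2 fell (−0.31, edgeR adjusted p = 0.0113), a call lost without replicate 1 of NTC (0.132) or of siRNA1 (0.138). ARNTL, a clock activator gene regulated by ROR and REV-ERB receptors, did not pass (0.10, SE 0.07, edgeR adjusted p = 0.414).

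Of 6 tested genes of vitamin D metabolism and response, 2 fell: the calcium channel TRPV6 from 4.87 ± 0.749 to 2.77 ± 0.449 CPM (−0.81, SE 0.12, edgeR adjusted p = 3.17e-05; 0.113 without the block; SD, n = 3 each), and CYP27B1, which makes the active hormone (−0.29, edgeR adjusted p = 0.024). The CYP27B1 call was lost without any NTC replicate or siRNA1 replicates 1 or 2 (highest adjusted p = 0.226). TRPV6 also stood at −0.42 (SE 0.12, edgeR adjusted p = 0.163) for siRNA2 against NTC, and passed for siRNA1 against siRNA2 (−0.39, edgeR adjusted p = 0.0391). Of 13 tested LXR target genes, the phospholipid enzyme LPCAT3 rose (0.32, edgeR adjusted p = 0.0228) and the lipogenic factor SREBF1 fell (−0.32, edgeR adjusted p = 0.00853). LPCAT3 lost its call without NTC replicates 2 or 3 or any siRNA1 replicate (highest adjusted p = 0.134), and SREBF1 without NTC replicate 3 or siRNA1 replicates 1 or 2 (highest adjusted p = 0.0986). Of 8 tested thyroid hormone genes, BCL3, a nuclear NF-kappa-B cofactor, rose from 0.19 ± 0.0438 to 0.452 ± 0.0143 CPM (1.22, SE 0.27, edgeR adjusted p = 0.00396; 0.0777 without the block), and the transporter SLC16A10 fell (−0.32, edgeR adjusted p = 0.0204). The latter call was lost without replicates 1 or 2 of NTC or of siRNA1 (highest adjusted p = 0.148). BCL3 also stood at 0.68 (SE 0.30, edgeR adjusted p = 0.545) for siRNA2 against NTC, and did not pass for siRNA1 against siRNA2 (0.54, edgeR adjusted p = 0.21). No gene of these 3 lists passed without the block. Some genes called against NTC in the cofactor, metabolism, chaperone and target lists did not pass for siRNA1 against siRNA2. They were KAT2B, NCOA4, PRMT1, FABP5, STRA6, RETSAT, DDIT4, DNAJB1, LPCAT3, SREBF1, BCL3 and BHLHE40. The other genes named there as called against NTC passed in both comparisons.

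Within 500 kb of the RXRA start, 6 other genes were tested, all upstream, and 0 were higher and 1 lower for siRNA1 against NTC, beside 5.48% and 5.93% of all genes, and nothing is read from so few genes. The lower one was BRD3OS, 291.7 kb away (log2 fold change −0.32 with SE 0.07, edgeR adjusted p = 0.00546; 0.473 without the block), a call lost without NTC replicate 3 (0.051) or siRNA1 replicate 1 (0.0924). The nearest, the long noncoding BX649601.1 at 148.3 kb, was at 0.238 ± 0.0913 CPM under NTC and 0.401 ± 0.126 under siRNA1 and did not pass (0.73, SE 0.25, edgeR adjusted p = 0.0634). BX649601.1 also stood at 0.71 (SE 0.26, edgeR adjusted p = 0.397) for siRNA2 against NTC, and at 0.02 (SE 0.24) for siRNA1 against siRNA2. BRD3 and WDR5, chromatin proteins of the same stretch, did not pass (−0.13 and −0.10, SE 0.06 each, edgeR adjusted p = 0.182 and 0.325).

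The genes whose levels followed RXRA most closely were found by Pearson's r of log2 CPM over the 9 libraries, among 12553 tested genes with a mean of at least 1 CPM. The 3 siRNA1 libraries lie apart from the other 6 for RXRA, so r largely describes that gap, and it is given with no test. The highest were CREB3L2 (r = 0.99), a membrane-bound transcription factor, PPIP5K1 (0.97), an inositol pyrophosphate kinase, TRAF3IP3 (0.97), an adaptor of lymphocytes, VCL (0.96), the adhesion protein vinculin, and GBP2 (0.96), an interferon-inducible GTPase. CREB3L2 went from 72.3 ± 4.52 CPM under NTC to 87.1 ± 5.49 under siRNA1 and 76.3 ± 1.76 under siRNA2, 1.2-fold against NTC where RXRA was 2.77-fold higher, and GBP2 from 1.08 ± 0.0985 to 2.77 ± 0.712 and 1.15 ± 0.209 CPM (SD, n = 3 each). The lowest were RCAN1, TIMP2 and RFX8 (r = −0.97 each), a calcineurin inhibitor, a metalloproteinase inhibitor and an RFX family factor. Among the receptors, r with RXRA was 0.87 for RARG, 0.72 for THRA, 0.65 for RXRB, 0.52 for RARA, 0.37 for NR3C1, 0.29 for NR1H2 and −0.57 for RORA, and it was 0.89 for TLX1.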

How the data were processed

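Per-gene read counts were taken as deposited, 1 table for each library, per the labels from an unstranded TruSeq polyA+ kit; the aligner is not given in the sources used here and the build is GRCh38, per the submitters' processing notes. The count without regard to strand was used (strand columns split 50.2% to 50.6%), and the summary lines that name no gene were left out; 75.5% to 77.6% of reads fell in genes. Of 58096 identifiers, 57492 matched GENCODE 29, which gave symbols and positions. The 604 others held 0.0317% of counts.

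R 4.3.3 and edgeR 4.0.16 served for the tests. After filterByExpr (minimum count 10 and total 15) 18554 genes were kept, and TMM factors ranged from 0.975 to 1.04. Genes were compared by the two-sided quasi-likelihood F test, in 1 fit of all 9 libraries with the group and the replicate number as a block, and Benjamini-Hochberg adjustment over all genes; a call is an adjusted p under 0.05. The size of the log2 fold change divided by the root of F gave its SE. CPM is scaled by TMM factors, and TPM uses the merged length of all annotated exons of each gene. Correlations used log2 CPM with a prior count of 2. The fits were tested on simulated data.

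The labels give every group replicates 1 to 3. Deviations from the group means correlated positively between all 9 pairs of equal number (0.383 to 0.623), and the 18 other pairs ranged from −0.445 to 0.069. Such deviations cancel within a group, which pushes the other pairs towards negative values. The numbers were taken to pair the libraries, from the data. Replicate libraries differed beyond counting noise (chi-square per degree of freedom 36.0 to 60.7). Whether replicates came from separate cultures is not in the labels, and p-values therefore cover only the spread among these libraries, which may be technical.

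The receptors, lists and rules were chosen with earlier results of these data known. Named genes are the 9 receptors, TLX1, other receptors called or among the 3 highest by TPM, up to 4 called genes per list by size for siRNA1 against NTC, called or nearest neighbours of RXRA, and the 5 highest and 3 lowest correlations with it. 1 receptor gene of the family list is not reported here. FKBP5, ARNTL, BRD3 and WDR5 were added after their values were seen. Alternatives were RLE factors, library size alone, no filter, 1 CPM in 3 libraries, DESeq2 1.42.0, limma-voom (limma 3.58.1), no block, only the groups compared, summed strand columns, each library left out, and no replicate 1 libraries. DESeq2 without the block was added after seeing the data.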

Additional observations from a re-analysis of the deposited data

How the results depend on the processing

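The replicate block moved most counts. Without the replicate block edgeR called 238 genes in place of 2117 for siRNA1 against NTC, 0 in place of 28 for siRNA2 against NTC (392 at an unadjusted p under 0.05) and 201 in place of 1958 for siRNA1 against siRNA2, and DESeq2 without the block called 553, 4 and 522. Receptors called other than RXRA went from 3 to 1 and from 4 to 2 in the comparisons with siRNA1 (DESeq2 without the block: 2 in each). Without the 3 libraries numbered replicate 1, counts were 1139, 93 and 1015, and 3228 in place of 6650 for the replicate term. For siRNA2 against NTC, no filter beyond 1 count gave 158, DESeq2 105, only the groups compared 105 and summed strand columns 51. With 1 library left out, counts ranged from 1163 to 2979, from 4 to 108 and from 980 to 2387, and from 4595 to 7083 for the replicate term. The low ends came without siRNA1 replicate 1, siRNA2 replicate 3 and siRNA1 replicate 1; siRNA1 against NTC also gave 1410 without NTC replicate 1 and 1326 without siRNA1 replicate 3, siRNA1 against siRNA2 gave 1135 without siRNA1 replicate 3, and siRNA2 against NTC gave 108 without NTC replicate 1, 78 without siRNA1 replicate 2 and 65 without siRNA2 replicate 1. The causes were not tested.

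Signs turned only in comparisons in which the gene was not called. Without the replicate 1 libraries NR3C1 stood at −0.04 and NR1H2 at −0.02 for siRNA1 against NTC, RARA at −0.00 and NR3C1 at −0.01 for siRNA2 against NTC, and NR3C1 at −0.03 for siRNA1 against siRNA2. With 1 library left out, log2 fold changes for siRNA1 against NTC ranged from −0.02 to 0.10 for NR3C1, −0.04 to 0.11 for NR1H2, −0.01 to 0.03 for NR2C2 and −0.02 to 0.04 for NR2C1. For siRNA2 against NTC they ranged from −0.01 to 0.16 for RARA, −0.04 to 0.08 for NR3C1, −0.17 to 0.02 for THRA and −0.14 to 0.02 for NR1H2, and for siRNA1 against siRNA2 from −0.05 to 0.06 for NR3C1. Of 35 calls of named genes other than the 9 receptors and TLX1, 16 held whichever of the 9 libraries was left out and 3 held without the block. Depth limits VDR and NR4A3, at 2 to 23 counts per library.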
